A study of Homo sapiens with 8 samples.

Results

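Of 43682 gene symbols in the RNA count tables of the series, 10 were chosen by name as cadherins and regulators of the epithelial-mesenchymal transition, and all 10 were present. They are the epithelial genes CDH1 and CDH16, the kidney cadherin CDH6, and the mesenchymal genes CDH2, VIM, SNAI1, SNAI2, ZEB1, ZEB2 and TWIST1. Their transcripts were measured in UM-RC-2, an established line of clear cell renal cell carcinoma whose own VHL gene carries a missense mutation per the labels (p.Arg82Pro). The VHL group stably expressed introduced VHL, and the control group, VEC, a construct that the labels name without describing it. Both groups were made by lentiviral infection and selected in 10 µg/ml blasticidin, in DMEM with fetal bovine serum. There were 2 libraries per group, numbered 1 and 2 in the titles. The labels do not say whether the numbers stand for separate infections, clones or cultures, so the spread between these libraries may be technical. With 1 residual degree of freedom, each SE draws on a spread estimated across all genes tested. It is not the spread of a gene's own libraries alone. VHL was compared with VEC within each replicate number, as pair 1 and pair 2.

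Cadherins are adhesion proteins that hold neighbouring cells together, and their tails bind catenins, which connect them to actin. In an epithelial-mesenchymal transition, cells lose E-cadherin (CDH1) and gain N-cadherin (CDH2) and vimentin (VIM), under repressors of the SNAI, ZEB and TWIST families that bind E-boxes in the promoters of epithelial genes. Kidney tubules are unusual epithelia, since proximal tubule cells carry N-cadherin and cadherin-6 (CDH6) more than E-cadherin, and Ksp-cadherin (CDH16) is a tubule cadherin with a short tail. VHL sends hypoxia-inducible factors to the proteasome, and its loss in renal cells has been linked to lower E-cadherin. The comparison asks whether returning VHL shifted these transcripts towards the epithelial side.

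The replicates stood far apart. On the log2(CPM + 1) scale over 21673 genes, VEC and VHL of the same number had a Pearson's r of 0.991 and 0.978, but r was 0.502 for the pair of VEC libraries and 0.531 for the pair of VHL libraries. These values describe the libraries, since genes are no replicates. Total counts were 21306867 (VEC) and 16230291 (VHL) in replicate 1 and 50027348 and 46609709 in replicate 2. Pseudogenes took 1.33% (VEC) and 2.04% (VHL) of counts in replicate 1 against 31.2% and 24.9% in replicate 2. How this difference within pairs bears on the scaled pair changes was not tested. VHL was measured at 37.1 (VEC) and 146 CPM (VHL) in replicate 1 and at 88.9 and 151 CPM in replicate 2. CPM is the count relative to library size after TMM scaling. The correlations between libraries instead used counts relative to total counts, without TMM scaling. The counts are per symbol and do not separate introduced from endogenous VHL. All 10 renal epithelial markers passed the filter on low counts, with PAX8, a kidney transcription factor, at 40.8 to 75.9 CPM. Some of them were low, with AQP1 at 0.175 to 1.72 CPM and LHX1 at 1.34 to 2.96 CPM. Markers of other cell types had summed levels of 0 to 1.62 CPM over 7 fibroblast genes, 0 to 0.0864 CPM over 5 endothelial genes and 0.643 to 1.78 CPM over 5 blood cell genes. Of the defining markers, COL3A1, FAP, PECAM1, CDH5, KDR, VWF and CD3E had 0 counts in all 4 libraries. Others had counts mainly in replicate 2, with 72 (VEC) and 63 (VHL) for PTPRC, 52 and 46 for PDGFRA and 15 and 18 for DCN, against 0 or 1 in replicate 1. CSF1R had 16 and 9 counts in replicate 1 and 0 and 1 in replicate 2. PTPRC, PDGFRA, DCN and CSF1R also passed the filter on low counts.

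No member passed the test. Of the 10 members, 8 passed the filter on low counts, and SNAI2 and TWIST1 did not. In edgeR's quasi-likelihood test with the replicate number as a term, 0 of these 8 had a Benjamini-Hochberg adjusted p under 0.05, while 3.10% of the 24417 genes tested did. An unadjusted p under 0.05 was reached by 4 members (ZEB2, CDH6, ZEB1 and VIM), against 12.5% of all genes. Of all genes, 0.749% were called higher in VHL and 2.35% lower. The Wald test of DESeq2, also with the replicate number as a term, called 3 members (VIM, CDH6 and ZEB1), where 4.98% of genes were called. That share is over all 24417 genes, including those to which DESeq2 gave no adjusted p. CDH1, SNAI1 and ZEB2 were among the genes without one. VIM alone was called with DESeq2 size factors (4.09% of genes) and among protein-coding genes alone (7.13%), VIM and CDH6 were called when genes under 20 counts in any library were left out (9.73%), and 0 members with no filter (1.95%). With group as the only term, edgeR called 0 members and 0.00% of genes, and 0 members and 22 genes had an unadjusted p under 0.05. Values are therefore given pair by pair. In bulk RNA, fewer cells with a transcript and less of it per cell cannot be told apart.

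**Figure D1:**
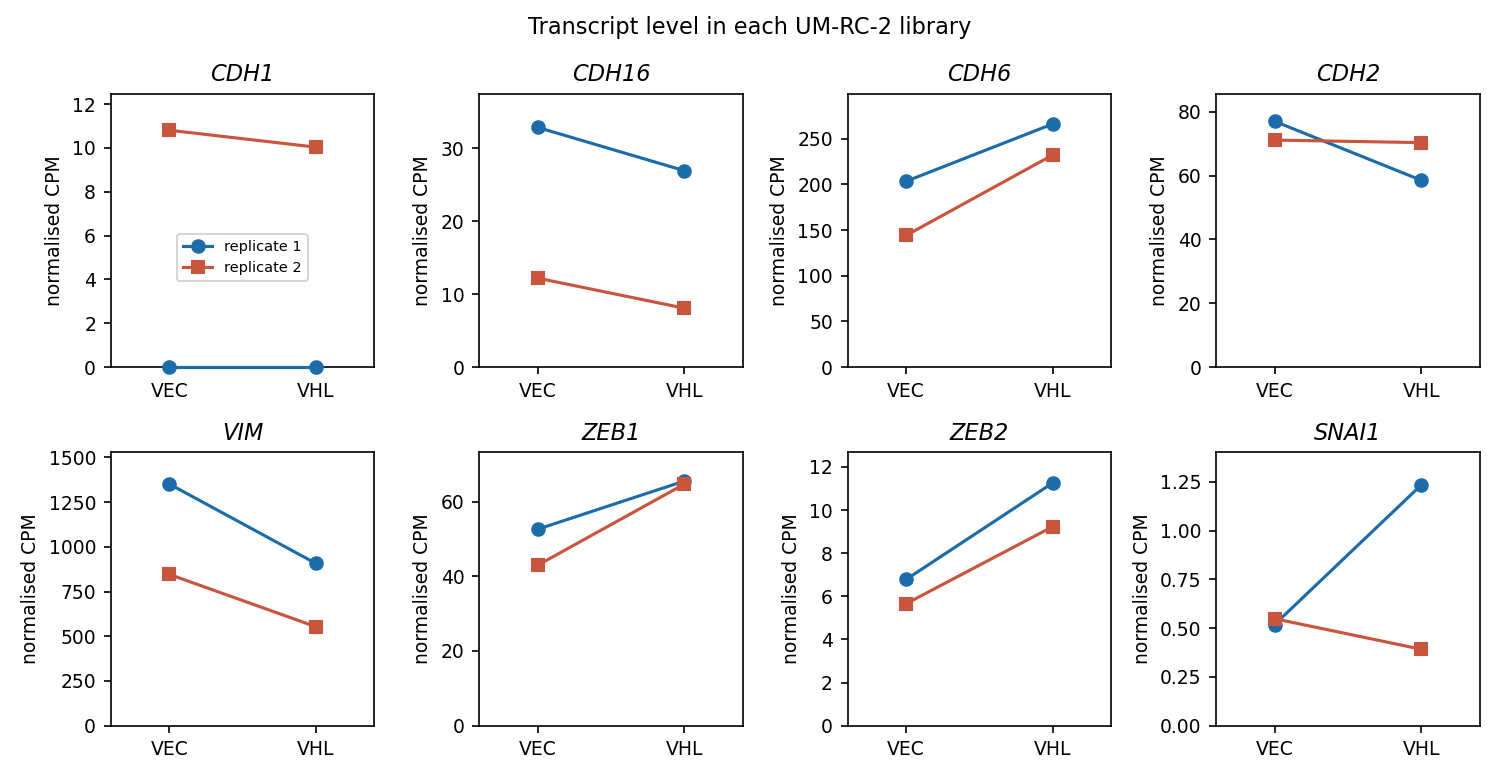
Level of each tested member in normalised CPM (vertical axes start at 0 and differ between genes) in the VEC and VHL library of replicate 1 (circles) and replicate 2 (squares), joined within a pair. CDH1 was at 0 in both replicate 1 libraries, and CDH6, ZEB1 and ZEB2 were above both VEC values in both VHL libraries.

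CDH1, which encodes E-cadherin, the main adhesion protein of most epithelia, had 0 counts in both libraries of replicate 1 and 493 (VEC) and 410 (VHL) counts in replicate 2. Within replicate 2 the level was 10.8 CPM for VEC against 10.0 CPM for VHL. The limit that 0 counts allows, set at 3 counts, is 0.130 CPM for VEC and 0.161 CPM for VHL in replicate 1, so CDH1 was at least 83.4-fold (VEC) and 62.4-fold (VHL) higher in replicate 2. In pair 2 the log2 change was -0.11, with a 95% interval of -0.30 to 0.09 from the counts alone (exact binomial, counting error only). The fit gave -0.11 ± 0.46 (SE, edgeR adjusted p = 0.989), and its 95% interval reached up to 0.79. With 0 counts in replicate 1, this log2 change rests on replicate 2. A gain of E-cadherin transcript with VHL was not detectable in either pair.

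CDH16 encodes Ksp-cadherin, a cadherin largely confined to kidney tubules. Its counts were 760 (VEC) and 502 (VHL) for replicate 1, then 556 and 330 for replicate 2. The levels were 32.8 and 26.9 CPM in pair 1 and 12.2 and 8.08 CPM in pair 2. VHL was the lower library of both pairs, while the groups overlapped because both replicate 1 libraries were above both of replicate 2. The log2 changes were -0.29 (counting interval -0.45 to -0.12) and -0.59 (-0.79 to -0.39). The fit gave -0.44 ± 0.25 (SE of the fit, 2 libraries per group, edgeR adjusted p = 0.493). The epithelial gene with counts in all libraries was therefore measured lower, not higher, with VHL, by less than the test could call.

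CDH6 encodes cadherin-6, an adhesion protein of the developing nephron and the proximal tubule that is retained in renal cell carcinoma. Counts were 4709 (VEC) and 4965 (VHL) in replicate 1 and 6576 and 9483 in replicate 2. These corresponded to 203 and 266 CPM in pair 1 and 144 and 232 CPM in pair 2. Both VHL libraries were above both VEC libraries, and VHL stood at 1.31 and 1.61 times the VEC level of its pair. The log2 changes of 0.39 (counting interval 0.33 to 0.45) and 0.69 (0.64 to 0.73) differed from each other beyond counting error. The fit gave 0.54 ± 0.24 (SE of the fit, 2 libraries per group, edgeR adjusted p = 0.260). The change was called by DESeq2 (adjusted p = 0.000217) and by edgeR when genes with fewer than 20 counts in any library were left out (adjusted p = 0.0349).

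CDH2 encodes N-cadherin, the cadherin gained in the transition in other epithelia and present in the normal proximal tubule. It was measured at 77.0 (VEC) and 58.5 CPM (VHL) in replicate 1, from 1782 and 1092 counts. In replicate 2 it was at 71.1 and 70.3 CPM, from 3243 and 2872 counts. VHL was below VEC by -0.40 on the log2 scale in pair 1 (counting interval -0.51 to -0.29), and pair 2 was at -0.02 (-0.09 to 0.06). Both VHL values were below both VEC values, but in pair 2 by less than the counting error. The fit gave -0.20 ± 0.21 (SE of the fit, 2 libraries per group, edgeR adjusted p = 0.854), with a 95% interval of -0.62 to 0.21.

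VIM encodes vimentin, the intermediate filament protein of mesenchymal cells that is also a marker of clear cell renal carcinoma. Its counts were 31285 (VEC) and 16929 (VHL) in replicate 1 and 38586 and 22610 in replicate 2. The levels were 1352 and 907 CPM in pair 1 and 846 and 554 CPM in pair 2. VHL was at 67.1% and 65.4% of the VEC level of its pair, and the pairs were closer to each other than for any other tested member with the exception of ZEB2. The groups overlapped, because the VHL library of replicate 1 was above the VEC library of replicate 2. The log2 changes were -0.57 (counting interval -0.60 to -0.55) and -0.61 (-0.64 to -0.59). The fit gave -0.59 ± 0.28 (SE of the fit, 2 libraries per group, edgeR adjusted p = 0.337), with a 95% interval of -1.15 to -0.04. Of all members VIM came nearest to a call across the alternatives, as 4 of the 6 called it, and VIM-AS1, its antisense gene, had at most 55 counts in a library.

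ZEB1 and ZEB2 encode zinc finger repressors that bind paired E-boxes and silence CDH1 in the textbook transition. ZEB1 was measured at 52.6 (VEC) and 65.5 CPM (VHL) in replicate 1 and at 43.0 and 64.7 CPM in replicate 2, from 1218, 1222, 1960 and 2642 counts. ZEB2 was measured at 6.78 and 11.3 CPM in replicate 1 and at 5.66 and 9.23 CPM in replicate 2, from 157, 210, 258 and 377 counts. For both genes each VHL library was above each VEC library. The log2 changes of ZEB1 were 0.32 (counting interval 0.20 to 0.43) and 0.59 (0.51 to 0.67). For ZEB1 the fit gave 0.45 ± 0.21 (SE of the fit, 2 libraries per group, edgeR adjusted p = 0.316). The log2 changes of ZEB2 were 0.73 (0.43 to 1.04) and 0.71 (0.47 to 0.94), and the fit gave 0.72 ± 0.31 (edgeR adjusted p = 0.240), the largest value among the tested members. DESeq2 called ZEB1 (adjusted p = 0.0151) and gave no adjusted p for ZEB2. ZEB1-AS1, an antisense gene beside ZEB1, had 158 and 138 counts in replicate 1 and 660 and 647 in replicate 2. Its log2 change was 0.12 ± 0.29 (edgeR adjusted p = 0.970), and the use of strand is not given in the sources used here, so reads of ZEB1 and ZEB1-AS1 cannot be told apart. Both ZEB genes were thus measured higher with VHL, while VIM was measured lower.

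SNAI1, SNAI2 and TWIST1 encode Snail, Slug and Twist, the other classical repressors of CDH1. SNAI1 had 12 (VEC) and 23 (VHL) counts in replicate 1 and 25 and 16 in replicate 2. At these counts the pairs pointed in opposite directions, with log2 changes of 1.25 (counting interval 0.18 to 2.39) and -0.48 (-1.49 to 0.48). The fit gave 0.35 ± 0.69 (SE of the fit, 2 libraries per group, edgeR adjusted p = 0.959). SNAI2 had 0 counts in all 4 libraries, and TWIST1 had 0 in both replicate 1 libraries and 1 in each replicate 2 library. A limit of 3 counts corresponds to 0.0658 to 0.161 CPM per library, and a change of either gene was not detectable at this depth.

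**Figure D2:**
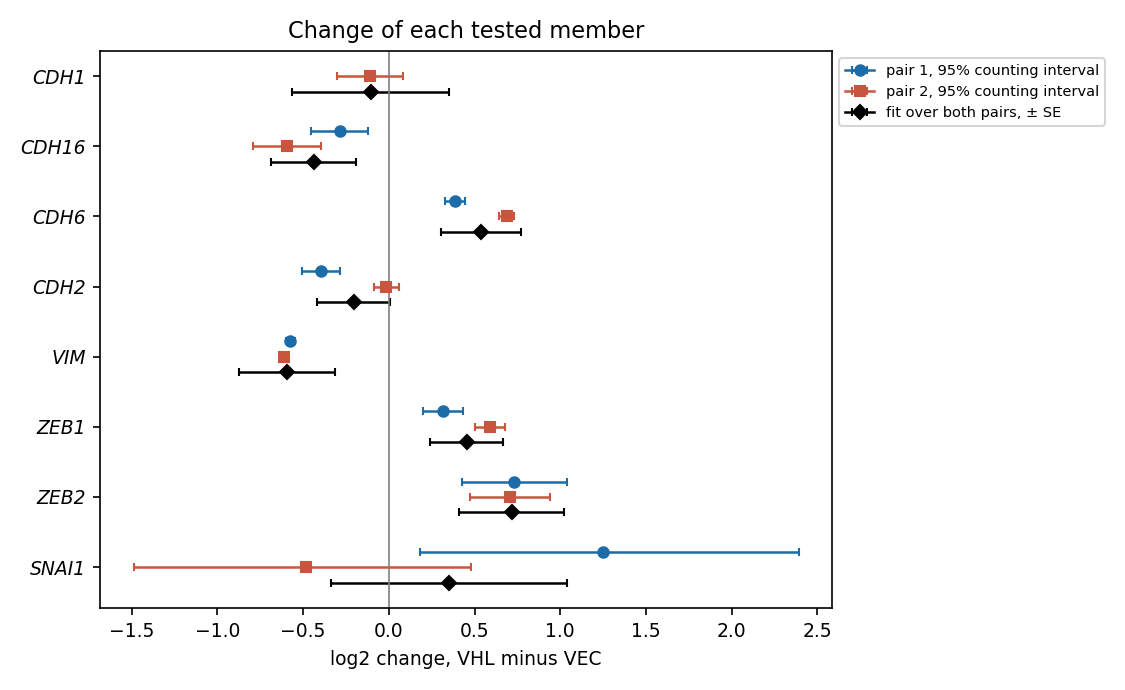
Log2 change from VEC to VHL of each tested member in pair 1 (circles) and pair 2 (squares), with 95% exact binomial intervals that cover counting error only, and in the fit over both pairs (diamonds, bars are SE). VIM is at -0.57 and -0.61 in the pairs and ZEB2 at 0.73 and 0.71, while SNAI1 has opposite signs and CDH1 has a value in pair 2 only.

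Set against each other, the epithelial and mesenchymal genes were not separated by direction. The sign was the same in both pairs for 6 members (lower in VHL for CDH16, CDH2 and VIM, higher for CDH6, ZEB1 and ZEB2). Of the tested protein-coding genes, 29.9% were higher and 29.1% lower in both pairs. The groups did not overlap for 4 members, with VHL higher for CDH6, ZEB1 and ZEB2 (4.47% of all genes and 7.08% of protein-coding genes) and lower for CDH2 (3.39% and 4.95%). Epithelial CDH1 and CDH16 had a median log2 change of -0.27 in the fit, where the value of CDH1 rests on replicate 2. The 5 tested mesenchymal genes had a median of 0.35, with values between -0.59 (VIM) and 0.72 (ZEB2), on both sides of the epithelial genes. That median is the value of SNAI1, which had at most 25 counts in a library and opposite signs in the pairs. Within pairs the mesenchymal median was 0.32 (pair 1) and -0.02 (pair 2), so it was not positive in both. The median over the 13710 tested protein-coding genes was 0.01 (quartiles -0.25 and 0.23). The epithelial minus mesenchymal difference of medians was -0.62 in the fit, -0.60 in pair 1, where CDH16 alone stands for the epithelial genes, and -0.33 in pair 2. The ratio of CDH2 to CDH1, the classical cadherin switch, had a log2 change of 0.09 in pair 2 and cannot be formed in pair 1. The ratio of ZEB2 to CDH1 had a log2 change of 0.81 in pair 2. Against CDH16, the ratio of VIM had log2 changes of -0.29 and -0.02, that of CDH2 -0.11 and 0.58, and that of CDH6 0.67 and 1.28. The ratio of CDH6 to CDH2, the 2 proximal tubule cadherins, had log2 changes of 0.78 and 0.70. No p is given for these ratios and medians, which describe the members.

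The sequence before the start of a gene is shown for the 4 members with an entry in the promoter table used here (ZEB1, ZEB2, VIM and CDH2), to set the repressor genes with higher values beside VIM and CDH2 with lower ones. The windows are 250 bases upstream of the outermost RefSeq start (build GRCh38.p14), read 5′ to 3′ on the strand of the gene. Capitals mark CAGGTG, the E-box form bound by SNAI and ZEB proteins, and ACGTG or GCGTG, the core letters of a hypoxia response element, each searched on both strands.
ZEB1, chr10:31318167-31318416, plus strand: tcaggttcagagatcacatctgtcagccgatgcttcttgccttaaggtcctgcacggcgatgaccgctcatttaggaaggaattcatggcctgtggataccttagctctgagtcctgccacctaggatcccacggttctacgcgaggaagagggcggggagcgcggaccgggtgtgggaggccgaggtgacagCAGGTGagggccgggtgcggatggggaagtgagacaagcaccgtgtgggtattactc
ZEB2, chr2:144520120-144520369, minus strand: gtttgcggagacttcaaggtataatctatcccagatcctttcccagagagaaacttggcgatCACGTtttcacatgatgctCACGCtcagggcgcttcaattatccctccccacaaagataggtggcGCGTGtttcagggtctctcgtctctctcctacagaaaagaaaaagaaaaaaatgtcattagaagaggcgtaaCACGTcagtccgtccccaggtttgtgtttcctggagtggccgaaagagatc
VIM, chr10:17227991-17228240, plus strand: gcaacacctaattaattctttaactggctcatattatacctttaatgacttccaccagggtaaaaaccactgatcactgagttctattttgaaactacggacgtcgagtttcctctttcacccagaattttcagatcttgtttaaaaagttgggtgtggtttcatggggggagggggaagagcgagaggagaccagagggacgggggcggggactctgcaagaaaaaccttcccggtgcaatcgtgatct
CDH2, chr18:28177131-28177380, minus strand: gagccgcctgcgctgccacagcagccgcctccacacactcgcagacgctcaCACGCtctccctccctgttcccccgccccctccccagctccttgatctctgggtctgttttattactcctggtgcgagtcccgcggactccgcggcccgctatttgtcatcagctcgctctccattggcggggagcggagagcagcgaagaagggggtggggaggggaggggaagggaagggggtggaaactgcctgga
ZEB2 held ACGTG at 2 places and GCGTG at 2 places, ZEB1 held CAGGTG at 1 place, CDH2 held GCGTG at 1 place, and VIM held none of the 3 motifs in this window. Over 35116 windows of the same length, 17.5% hold CAGGTG, 18.5% hold ACGTG and 32.2% hold GCGTG. The matches are letters in a window and do not show that a factor binds there.

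Of the 23 cadherin genes with a number in their symbol, 14 were tested and 0 passed in edgeR's quasi-likelihood test, with 2 (CDH6 and CDH4) at an unadjusted p under 0.05 and 1 (CDH6) called by DESeq2, which gave an adjusted p for 6. Their median log2 change was -0.05, against -0.03 over all genes tested. CDH1, CDH4, CDH7, CDH8, CDH13 and CDH18 had at most 3 counts in both replicate 1 libraries and at least 100 in both replicate 2 libraries. This pattern held for 6 of 23 cadherins (26.1%) and for 774 of 18941 protein-coding genes (4.09%). No test was made of this pattern.

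CDH7, a type II cadherin of the nervous system, had 0 counts in replicate 1 and 1275 (VEC) and 1013 (VHL) in replicate 2. CDH13, the GPI-anchored T-cadherin, had 0 and 2 counts in replicate 1 and 1017 and 860 in replicate 2. CDH4, R-cadherin, had 0 in both replicate 1 libraries and 154 and 327 in replicate 2, so that its log2 change of 1.24 ± 0.54 (edgeR adjusted p = 0.263) rests on replicate 2. CDH8 had 247 and 175 counts and CDH18 had 341 and 352 counts in replicate 2. CDH17, the liver-intestine cadherin, had 2 and 11 counts in replicate 1 and 600 and 570 in replicate 2. CDH23, a cadherin of hair cell tip links, had 146 and 87 counts in replicate 1 and 1770 and 1539 in replicate 2, and CDH24 had 124 and 128, then 304 and 271. The part of library preparation or read assignment in this difference was not tested. By contrast CDH3, CDH5 and CDH15 had 0 counts in all 4 libraries, and CDH9, CDH11, CDH19 and CDH20 had at most 3.

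**Figure D3:**
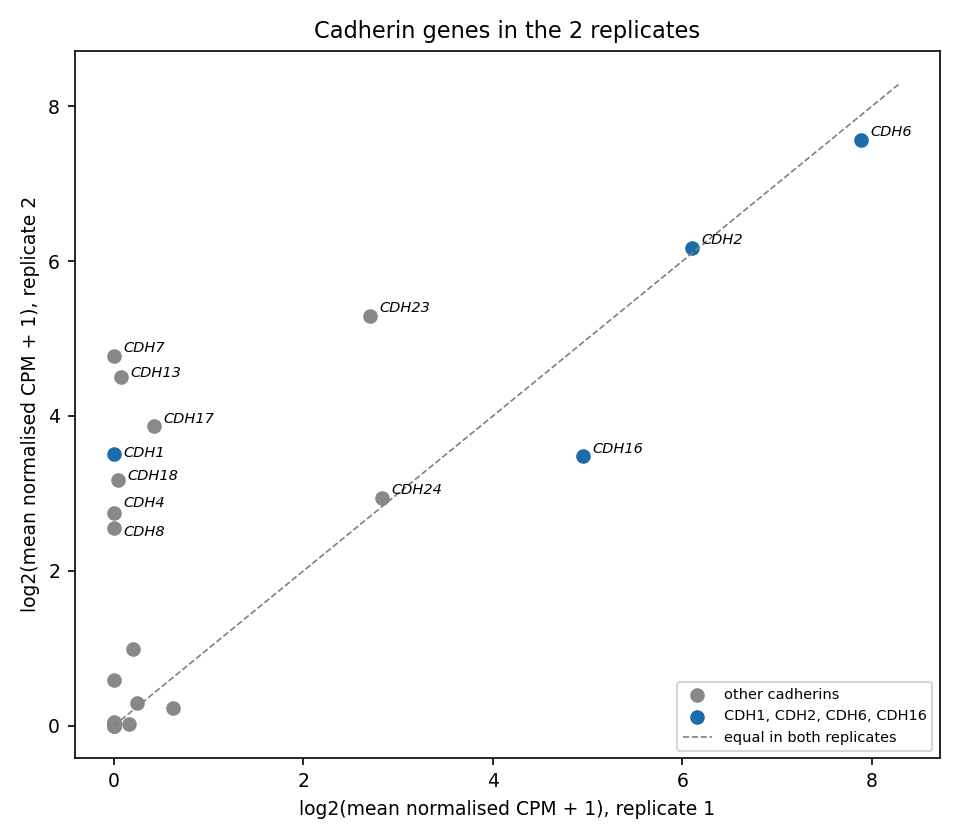
Level of the 23 cadherin genes, as log2(mean normalised CPM + 1) of the VEC and VHL libraries, in replicate 1 (horizontal) and replicate 2 (vertical), with members in blue. CDH2 and CDH6 lie near the line of equal levels, while CDH1, CDH4, CDH7, CDH8, CDH13 and CDH18 lie at or near 0 in replicate 1 alone.

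The proteins that connect cadherins to actin were represented by 9 genes, of which 5 were tested. None of the 5 passed (edgeR's quasi-likelihood test), with 1 (VCL) at an unadjusted p under 0.05 and 2 (CTNNA1 and VCL) called by DESeq2, which gave an adjusted p for 4. Their log2 changes ran from -0.37 to 0.54, with a median of 0.07. The mRNA of alpha-catenin (CTNNA1), beta-catenin (CTNNB1) and p120 catenin (CTNND1) was present in all libraries, while JUP, the plakoglobin of desmosomes, had at most 7 counts.

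The lists of other epithelial and mesenchymal genes are described by their counts, beside 3.10% of all genes called (0.749% higher and 2.35% lower), and the lists were not compared by a test. Among 19 junction genes 16 were tested, with 1 higher, 0 lower and a median log2 change of 0.05. DESeq2 also called TJP1 (log2 change 0.62 ± 0.21 in edgeR, adjusted p = 0.0991), and the fits with DESeq2 size factors, without genes under 20 counts in any library and with protein-coding genes alone called TJP1 and CLDN4 (-0.64 ± 0.22, edgeR adjusted p = 0.0867) beside CLDN1. The gene that rose in the edgeR test was CLDN1, a tight junction claudin. Its level was 4.84 (VEC) and 10.3 CPM (VHL) for replicate 1, with 9.80 and 19.3 CPM for replicate 2, and both VHL libraries were above both VEC libraries. The fit gave 1.03 ± 0.29 (SE of the fit, 2 libraries per group, edgeR adjusted p = 0.0183). Among 10 keratin and surface genes 4 were tested and 0 called (edgeR), with 0 at an unadjusted p under 0.05 and 0 of the 2 to which DESeq2 gave an adjusted p. Among 10 epithelial regulators 6 were tested, with 0 higher, 1 lower and a median of -0.28. ELF3, an epithelial ETS-family transcription factor, was lower in VHL (59.9 against 36.9 CPM, then 16.6 against 7.42 CPM), a log2 change of -0.92 ± 0.23 (edgeR adjusted p = 0.00369). GRHL1, of the same list, was higher with VHL in both pairs, with a log2 change of 1.07 ± 0.52 (edgeR adjusted p = 0.351). It was called only when genes under 20 counts in any library were left out. GRHL2, GRHL3 and OVOL1, factors that hold epithelia in their state, had 0 counts in all libraries. EPCAM, an epithelial surface protein, had at most 2 counts in a library.

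Among 18 mesenchymal structural genes 13 were tested, with 2 higher (0.749% of all genes), 3 lower (2.35%) and a median log2 change of 0.49. FN1 was already known to change in these libraries, so the list is no independent evidence of a direction. LOXL2 and LOX, lysyl oxidases that crosslink collagen and known targets of hypoxia-inducible factors, fell in both pairs. LOXL2 went from 28.9 to 9.22 CPM and from 53.5 to 13.6 CPM, with all VHL values below all VEC values. Its log2 change was -1.82 ± 0.24 (SE of the fit, 2 libraries per group, edgeR adjusted p = 1.96e-11). LOX went from 38.1 to 12.8 CPM and from 125 to 44.1 CPM, a log2 change of -1.53 ± 0.22 (edgeR adjusted p = 1.18e-09). TGFBI, a matrix protein induced by TGF-beta, went from 250 to 109 CPM and from 95.9 to 33.2 CPM, a log2 change of -1.36 ± 0.23 (edgeR adjusted p = 4.40e-07). FN1, fibronectin, rose by 2.28 ± 0.26 on the log2 scale (edgeR adjusted p = 5.53e-15). CD44, a hyaluronan receptor named after its values were seen, rose by 1.00 ± 0.24 (edgeR adjusted p = 0.00267). ITGA5 had a log2 change of 0.94 ± 0.32 (edgeR adjusted p = 0.0843). It was called under the stricter filter and with protein-coding genes alone.

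Among 15 further regulators listed as mesenchymal 11 were tested, with 0 higher, 1 lower (2.35% of all genes) and a median of -0.23. The 1 lower gene was ID1, itself an inhibitor of other factors, so the count gives no direction for the transition. DESeq2 called 4 of the 5 to which it gave an adjusted p, which were ID1, ID2, ID3 and HMGA2. In edgeR the log2 changes of ID2, ID3 and HMGA2 were -0.55, -0.48 and 0.54. ID1, an inhibitor of basic helix-loop-helix factors that responds to BMP signals, went from 385 to 205 CPM and from 60.6 to 36.3 CPM, a log2 change of -0.82 ± 0.23 (SE over 2 libraries per group, edgeR adjusted p = 0.0175). Of 13 genes of the TGF-beta pathway, a main inducer of the transition, 12 were tested and 0 called (edgeR), with 0 at an unadjusted p under 0.05 and 0 of 9 by DESeq2, and their median was 0.11. Among the 10 renal epithelial markers, 2 were higher and 2 lower, where 0.749% and 2.35% of all genes were. DESeq2 called CUBN, MME and LRP2 (log2 change -0.75 in edgeR) and gave no adjusted p for ANPEP and AQP1. CUBN and MME, apical proteins of the proximal tubule, had log2 changes of -1.94 ± 0.24 (edgeR adjusted p = 1.99e-13) and -0.82 ± 0.22 (edgeR adjusted p = 0.0143). AQP1, the water channel of the same segment, had 2.47 ± 0.69 (edgeR adjusted p = 0.0173), from at most 45 counts. ANPEP, another brush border enzyme, had 1.79 ± 0.45 (edgeR adjusted p = 0.00531), from at most 136 counts. With group as the only term every gene called here lost its call (edgeR adjusted p = 0.999991).

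**Figure D4:**
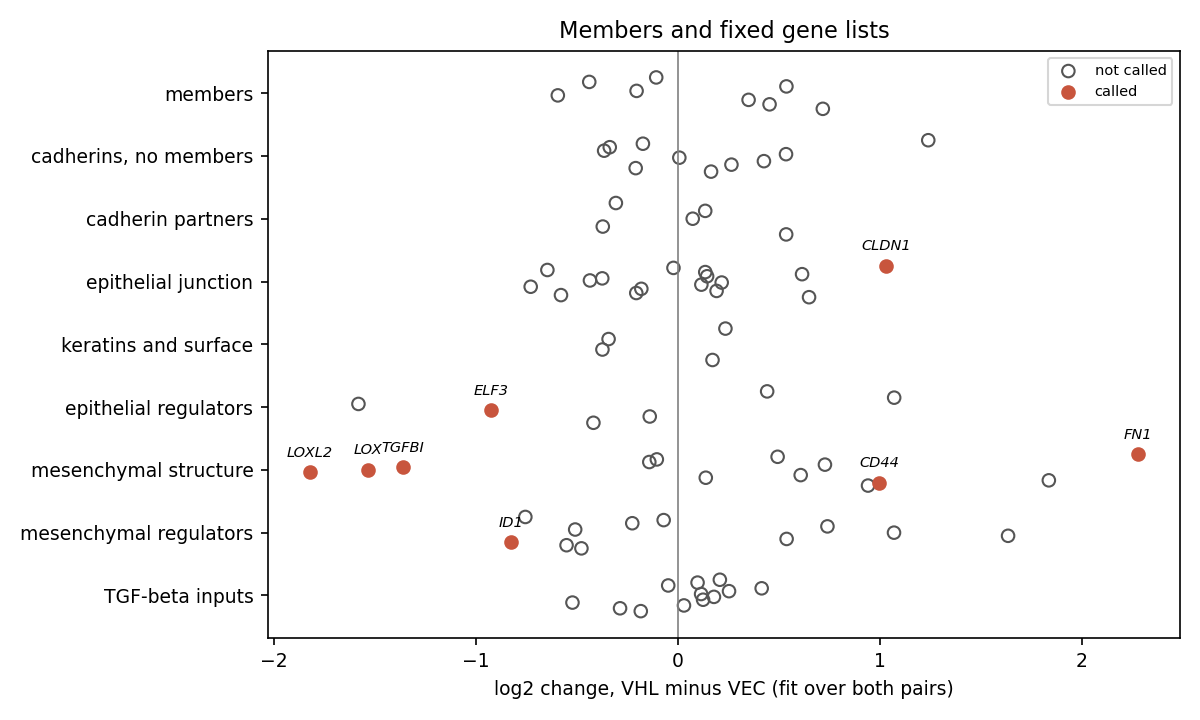
Log2 change from VEC to VHL in the fit over both pairs for each tested member and each tested gene of the fixed lists other than cell type markers (1 point per gene, vertical spread only separates points), filled where the adjusted p was under 0.05. The members lie between -0.59 and 0.72 with 0 called, and the called genes of the mesenchymal structure list lie on both sides, from LOXL2 at -1.82 to FN1 at 2.28.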

How the data were processed

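RNA-seq was analysed in 4 UM-RC-2 libraries, grouped by their titles. The titles also contain the word ChIP-seq. The deposited values are raw counts per gene symbol, from sorted hg19 alignments per the file headers. featureCounts is named in the submitters' processing notes. The aligner, annotation, use of strand and treatment of multiply mapped reads are not given in the sources used here, so overlapping and antisense genes are uncertain. Alignment names take another form in replicate 2 than in replicate 1, per the file headers.

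The software was edgeR 4.0.16 under R 4.3.3. After filterByExpr (minimum count 10), 24417 of 43682 symbols were scaled by TMM and tested with glmQLFit and glmQLFTest, two-sided, with replicate number and group as terms (1 residual degree of freedom). The replicate term was the first choice because VHL is compared with VEC within each replicate number. That choice was made with earlier results of these data known. Calls had a Benjamini-Hochberg adjusted p under 0.05 over all genes tested. SE was derived from the log2 change and the F statistic. The F statistic uses dispersions that borrow across all genes tested, so SE is not the spread between a gene's own pairs. Pair changes are log2 ratios of CPM on TMM-scaled library sizes, with 95% exact binomial (Clopper-Pearson) intervals that cover counting error only, since reads are not independent molecules. A floor of 3 counts was used for zeros.

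Alternatives were a fit without the replicate term, DESeq2 1.42.0, DESeq2 size factors, no filter, a stricter filter (20 counts in every library), protein-coding genes alone (classes and promoters from RefSeq, GRCh38.p14, with 42096 symbols matched) and each pair alone. Promoter windows were matched for ZEB1, ZEB2, VIM and CDH2. Named genes were the members, VHL and, per list, up to 4 called genes with the smallest adjusted p and the same sign in both pairs, with cadherins of at least 100 counts in a library. CD44, genes called by an alternative alone and genes named for low or 0 counts fall outside this rule and were chosen after their values were seen. The members and lists were chosen with earlier results of these data known. H3K27ac tables name regions without positions and were not used here.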

Additional observations from a re-analysis of the deposited data

How the results depend on the processing

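The count of called genes was 756 with the replicate block and 0 with no replicate block (22 at an unadjusted p under 0.05), 1215 in DESeq2 and 1181 under the stricter filter. Of these, 183 were higher and 573 lower with the block, 487 and 728 in DESeq2, 455 and 726 under the stricter filter, and 350 and 627 with protein-coding genes alone. Members called numbered 0 in the main analysis, with no replicate block and with no filter, 3 in DESeq2 (CDH6, VIM, ZEB1), 2 under the stricter filter (CDH6, VIM), and 1 (VIM) with DESeq2 size factors and with protein-coding genes alone. Genes called over the fixed lists numbered 12, against 0 with no replicate block and 19 under the stricter filter. VIM had adjusted p-values of 9.53e-08 (DESeq2), 0.0247 (protein-coding genes), 0.0330 (stricter filter) and 0.0432 (DESeq2 size factors), and 0.337 to 0.999991 in the other fits.

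The sign of each tested member was the same in all 6 alternative fits that tested it, with VIM between -0.63 and -0.59, CDH6 between 0.50 and 0.54, ZEB1 between 0.42 and 0.45, ZEB2 between 0.68 and 0.72, CDH2 between -0.24 and -0.20 and CDH16 between -0.47 and -0.36. CDH1 ran from -0.20 (DESeq2 size factors) to -0.10, and SNAI1 from 0.31 to 0.60 (no replicate block). With 1 pair alone SNAI1 was at 1.25 or -0.48. The epithelial minus mesenchymal difference was -0.60 to -0.33 with a replicate left out. With the block, leaving out 1 library is the same as leaving out its pair, which leaves a value with no test, so counts of calls have none. VEC and VHL libraries with the same number deviated together from their groups (r = 0.983 over genes). With 2 libraries per group this value restates the gap between replicates and is no separate check of pairing. The labels do not say what the number stands for. Low or 0 counts limit SNAI1, SNAI2 and TWIST1, and whether greater depth would change this was not tested.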
